A study of Homo sapiens and synthetic construct with 14 samples.

Results

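The ES benchmark library of a massively parallel reporter assay for silencers was analysed, in which each reporter plasmid carries a named enhancer (En01 to En21) followed by a test element, and barcodes in the GFP transcript report its output. The members are the lines of the run2 count table with a named enhancer and an assigned element, which are 25712 of the 27169 lines. The 1457 other lines hold elements without an enhancer, enhancers without an assigned element, or elements that were not assigned. The members pair 21 enhancers with 1412 elements, which are 85 REST, 129 YY1, 257 GFI1, 92 CTCF, 128 CTCF_TAD and 67 positive control windows, 650 random elements and 4 elements named singly (cHS4, Smirnov_C3, Smirnov_C6a and Smirnov_C8). The cells were GM12878, an established human lymphoblastoid line, electroporated with the pool and left for 24 hours before GFP messenger RNA was captured and reverse transcribed. The compared groups are the GFP mRNA of these cells and the plasmid pool itself, each with 4 libraries that the series design text calls biological replicates. No treatment was given, and all constructs are episomal plasmids in a single line, so their chromatin is not that of the genomic windows.

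REST is a zinc finger repressor that binds the RE1 sequence, recruits the CoREST and SIN3 corepressor complexes with their histone deacetylases, and holds neuronal genes off outside the nervous system. GFI1 is a repressor of blood cell development, YY1 acts as an activator at some promoters and as a repressor at others, and CTCF binds insulators and the borders of chromatin loops. A silencer can only be seen against transcription that is already on, and here each element stands beside enhancers of different strength.

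Below, the effect of an element beside an enhancer is the log2 ratio of the plmd-headed over the cDNA-headed counts, less the same ratio for the random elements beside that enhancer. A value of 0 is the level of a random element, and -1 is an output lower by a factor of 2. The direction goes against the column headings. The authors' deposited table of fold changes follows plmd over cDNA in run2 (Pearson r = 0.999 over 24896 constructs, on the log2 scale), whereas in the genome-wide RE1 library of the series it follows RNA over plasmid (r = 0.999 over 123097). With the headings read as written every effect below has the opposite sign. The totals over the members were 45946321 to 68873056 counts in the cDNA-headed libraries and 56601763 to 95467632 in the plmd-headed ones. Replicates correlated at 0.941 to 0.945 among the cDNA-headed and at 0.891 to 0.932 among the plmd-headed libraries (log2 of counts plus a pseudocount of 1). The deposited table holds no line with a mean plmd-headed count under 20 or with fewer than 10 barcodes, so constructs of very low output on that side were not analysed here.

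Sequences of 4 REST windows that overlap no annotated exon, drawn from those with the lowest and the highest mean effects, are shown because they carry the contrast within the class. They were read from hg38, 5′ to 3′ on the plus strand, with the start in the name counted from 0. Capitals mark the best match to the RE1 arms TTCAGCACC and GGACAGCGC on either strand, either 2 bases apart with at most 4 mismatches of 18 letters or 3 to 10 bases apart with at most 3, and a window in lower case alone has none. The low windows were
REST_chr18:5868356-5868556: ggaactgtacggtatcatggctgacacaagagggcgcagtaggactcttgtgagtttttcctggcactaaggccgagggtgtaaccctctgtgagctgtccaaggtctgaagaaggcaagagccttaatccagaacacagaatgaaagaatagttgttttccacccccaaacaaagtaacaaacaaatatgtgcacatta
REST_chr9:34494045-34494245: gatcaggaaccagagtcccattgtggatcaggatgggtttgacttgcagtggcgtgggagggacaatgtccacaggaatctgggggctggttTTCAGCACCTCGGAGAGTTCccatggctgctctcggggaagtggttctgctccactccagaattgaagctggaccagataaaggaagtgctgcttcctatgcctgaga
and the high windows were
REST_chr19:2169150-2169350: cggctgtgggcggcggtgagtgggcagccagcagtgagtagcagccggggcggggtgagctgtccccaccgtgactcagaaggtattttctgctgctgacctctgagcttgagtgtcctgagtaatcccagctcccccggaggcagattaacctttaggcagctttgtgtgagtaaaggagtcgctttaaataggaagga
REST_chr19:2608138-2608338: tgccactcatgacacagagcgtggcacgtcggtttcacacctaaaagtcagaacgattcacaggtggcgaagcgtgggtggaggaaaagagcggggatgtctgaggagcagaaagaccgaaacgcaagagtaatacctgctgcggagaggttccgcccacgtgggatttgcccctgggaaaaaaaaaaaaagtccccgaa
REST_chr9:34494045-34494245 has the arms 2 bases apart with 3 mismatches and lies in an intron of DNAI1, a dynein gene of cilia. REST_chr18:5868356-5868556 lies in an intron of the noncoding gene MIR3976HG and came no closer than 6 mismatches at the 2-base spacing. Of the high windows, REST_chr19:2169150-2169350 lies in an intron of DOT1L, a histone methyltransferase gene, and REST_chr19:2608138-2608338 in an intron of GNG7, a G protein subunit gene. These annotations are those of GENCODE release 44.

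REST windows were the class with the lowest effects. The class median was -0.36 (a 1.29-fold lower output) over 1512 tested pairs, and it was -0.33, -0.33, -0.29 and -0.35 when each plmd-headed library was taken alone. All 4 libraries put the REST median below that of every other genomic class. Single pairs ran from -1.23 at the lower decile to 0.82 at the upper decile, on both sides of the random elements. Pairs called lower numbered 527 of 1512 (34.9%), against 12.9% of all tested pairs, and 233 (15.4%) were called higher, against 26.8% of all (edgeR quasi-likelihood test, adjusted p under 0.05 over 25506 pairs). Random elements themselves were called lower in 14.1% and higher in 17.9% of 11772 pairs. Over all classes 3293 pairs were lower and 6835 higher, a split that became 4772 and 5793 when libraries were scaled on the summed counts of the random elements, which moved the median of all pairs by -0.13.

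Averaged over enhancers, 53 of 83 REST windows measured beside at least 10 enhancers were lower than random elements and 21 were higher, whereas 9 did not pass the test (limma over enhancers, adjusted p under 0.05). Over all 1368 elements tested this way, 28% were called lower and 41.1% higher. These are 383 and 562 elements, and the order turned to 511 lower and 458 higher with libraries scaled on summed counts. Of the 634 random elements tested, 33.1% were called lower and 30.3% higher. The limma fit takes enhancers as its observations, and they share the same 8 libraries. Its p-values therefore describe how an element varies over enhancers rather than over cultures. Restricting to pairs with at least 100 barcodes left 46 REST windows to test, of which 28 were called lower. Under that limit 253 of all 863 elements and 134 of 376 random elements were called lower. Of the 85 REST windows, 18 overlap another REST window and so share sequence.

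The lowest REST window was REST_chr19:4769653-4769853, with a mean of -1.26 (SD 0.68 over 20 enhancers, adjusted p = 1.03e-08 by limma), a 2.39-fold lower output. Its mean was -1.36, -1.36, -1.25 and -1.20 in the 4 plmd-headed libraries. The 4 libraries lie close together and all below 0, and so do its effects beside all 20 enhancers, from -2.64 beside En20 to -0.31 beside En03. REST_chr18:5868356-5868556 followed with -1.19 (SD 0.61, n = 15 enhancers, adjusted p = 1.67e-07 by limma), below 0 beside all 15 enhancers. It rested on a median of 21 barcodes, and its library means were -1.93, -1.13, -1.31 and -1.33. Library means come from the log2 counts of each library, not from the edgeR fit, and need not average to the mean given. REST_chr9:34494045-34494245 had a mean of -1.12 (SD 0.42, n = 20 enhancers, adjusted p = 6.08e-11 by limma), and 16 of its 20 pairs were called lower.

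The highest REST window, REST_chr19:2169150-2169350, had a mean of 2.32 (SD 0.60, n = 20 enhancers, adjusted p = 6.92e-15 by limma), a 4.98-fold higher output. Its library means were 2.36, 2.31, 2.37 and 2.36. All 20 of its pairs were called higher, from 1.39 beside En18 to 3.26 beside En07. REST_chr19:54448797-54448997 had a mean of 1.82 (SD 0.77, n = 20 enhancers) and REST_chr19:2608138-2608338 of 1.73 (SD 0.91, n = 20 enhancers), with 19 and 17 pairs called higher. The lowest library mean of these 3 windows was 1.58, in the third library of REST_chr19:2608138-2608338.

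The REST windows were then set against their sequence and position. A match as defined above was present in 21 of the 53 windows called lower (39.6%), in 7 of the 21 called higher (33.3%) and in 5 of the 9 with no call. Among 35116 RefSeq promoter windows (GRCh38.p14, their first 200 bases), 0.421% had the arms 2 bases apart and 0.282% had them 3 to 10 bases apart. The number of mismatches had almost no correlation with the mean effect (Pearson r = 0.06, Spearman rho = 0.01 over 83 windows, given as a description). Within 1000 bases of the start of a protein-coding gene lay 6 of the 21 windows called higher and 1 of the 53 called lower. The 28 windows that had the arms 2 bases apart and lay farther from such a start had a median of -0.66, with 21 called lower and 2 higher. The 48 without such a match and farther from a start had a median of -0.47, with 31 called lower and 13 higher. The 4 with such a match near a start had a median of 0.45, and all 4 were called higher. Of these 4, 2 overlap each other near the start of CHKA and so share sequence. The median GC content was 46.5% in windows called lower and 54.5% in those called higher, and GC content correlated with the mean effect at r = 0.39. The part of GC content and of gene starts in these differences was not tested. Among REST windows on chromosome 5 only REST_chr5:13554060-13554260 had a match. Whether hg38 is the build of every window was not tested. The shares and the correlation with mismatches therefore do not settle whether an RE1 match is related to the effect.

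Of the REST windows, 75 were also measured beside at least 1 of the 5 shared enhancers (En02, En09, En11, En19 and En21) in the genome-wide RE1 library, a separate plasmid pool in the same cell line. The 72 windows with 3 or more shared enhancers had mean effects that correlated at r = 0.90 (Spearman rho = 0.82, a description), and 66 of the 72 had the same sign in both pools. REST_chr19:4769653-4769853 averaged -1.49 here and -1.32 there over the same 5 enhancers, and REST_chr19:2169150-2169350 averaged 2.12 here and 2.04 there. Over all 342 shared pairs, 116 were called lower there and 40 higher, whereas 17.3% of all pairs of that pool were called lower and 22.7% higher. Of 141 shared pairs called lower here, 90 were called lower there, 2 were called higher and the rest had no call. Of 46 called higher here, 27 were called higher there and 0 lower. The mean effects of random elements of the same name correlated at r = 0.75 over 611 elements (a description). That pool holds scrambled versions of some windows. Of 39 windows with a negative mean here and a scrambled partner there, the native version was below the scrambled one in 29, and of 12 with a positive mean in 5. In REST_chr19:4769653-4769853 and REST_chr18:5868356-5868556 the scrambled mean was the lower one. For the former it was -2.69 (from -7.88 to 1.07 over 4 enhancers) against a native mean of -1.32 over 5 enhancers. For the latter it was -1.48 (from -2.49 to -0.11 over 4 enhancers) against -1.44. Both native means lie within the scrambled ranges. The versions were not compared enhancer by enhancer, so a difference between them was not tested.

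YY1 windows were mostly higher than random elements. The class median was 0.65 (a 1.57-fold higher output, 2333 pairs), with library medians of 0.71, 0.68, 0.65 and 0.70. Pairs called higher made up 50.2% of the class, and 5.01% were called lower, against 26.8% and 12.9% of all tested pairs. Of 125 windows averaged over enhancers, 97 were higher (77.6%), 15 lower (12%) and 13 had no call. Of all 1368 elements 41.1% were higher and 28% lower, and of the random elements 30.3% and 33.1%. The highest, YY1_chr18:9102638-9102838, had a mean of 2.96 (SD 0.54, n = 20 enhancers, adjusted p = 1.17e-17 by limma) with library means of 3.07, 3.003, 2.85 and 3.05. It lies 108 bases from the annotated start of NDUFV2, a subunit gene of respiratory complex I, and holds the letters AANATGGC, the core of the YY1 motif. YY1_chr9:31519111-31519311 averaged 2.53 (SD 0.90) and overlaps no annotated gene, and YY1_chr9:32552243-32552443 averaged 2.47 (SD 0.64) and overlaps exons of TOPORS, a ubiquitin and SUMO ligase gene.

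The core AANATGGC was found on either strand in 35 of the 97 YY1 windows called higher (36.1%), in 9 of the 15 called lower (60%) and in 6 of the 13 without a call, against 3.29% of the promoter windows. Near the start of a protein-coding gene lay 35 of the 97 windows called higher and 2 of the 15 called lower. Of the 129 YY1 windows, 21 overlap another YY1 window, and 13 of the 35 near a start do, 9 of them near the start of the same gene. These 9 include labels that join several of the overlapping windows and are counted here as windows of their own. The 40 tested windows near a start had a median effect of 0.75 and a median GC content of 70%, and the 85 others had 0.54 and 51%. No YY1 window on chromosome 5 held the core, and whether hg38 is the build of every window was not tested.

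GFI1 windows, the largest genomic class, stood slightly above random elements with a median of 0.20 over 4782 pairs, and the 4 libraries gave 0.25, 0.22, 0.24 and 0.23. With libraries scaled on summed counts this median was 0.08, so its size depends on the scaling. Of 254 windows, 123 were higher over enhancers (48.4%) and 51 lower (20.1%), against 41.1% and 28.0% of all 1368 elements. Among windows called and measured beside at least 15 enhancers, the lowest were GFI1_chr1:15650549-15650749 with -0.91 (SD 0.40, n = 19 enhancers), GFI1_chr18:9410600-9410800 with -0.85 (SD 0.33, n = 17) and GFI1_chr1:169162799-169162999 with -0.81 (SD 0.35, n = 20), and no pair of these 3 was called higher. Their effects were below 0 beside every enhancer measured. The highest under the same limit were GFI1_chr2:48373191-48373391 with 2.71 (SD 1.04, n = 20), GFI1_chr6:14877407-14877607 with 2.62 (SD 0.72, n = 21) and GFI1_chr14:50528522-50528722 with 2.44 (SD 0.62, n = 20). For the GFI1, CTCF, CTCF_TAD and positive control windows the sources used here name no genome build, so their coordinates are printed as named and were not annotated.

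CTCF windows stood above the random elements and CTCF_TAD windows beside them. CTCF windows had a median of 0.36 (1488 pairs, library medians 0.43, 0.42, 0.34 and 0.44), with 43 of 78 windows higher and 12 lower over enhancers. CTCF_TAD windows had a median of -0.02 (2296 pairs, library medians -0.01, 0.01, -0.03 and 0.01), with 31 of 124 higher and 35 lower, close to the random elements (192 of 634 higher and 210 lower). Among windows called and measured beside at least 15 enhancers, the lowest were CTCF_chr16:12667727-12667927 with -0.63 (SD 0.44, n = 20 enhancers) and CTCF_TAD_chr9:98098678-98098878 with -0.72 (SD 0.37, n = 20 enhancers). The highest under the same limit were CTCF_chr3:128336595-128336795 with 2.64 (SD 0.67, n = 19) and CTCF_TAD_chr1:168148083-168148283 with 2.58 (SD 0.68, n = 20), and the latter was called higher beside all 20 enhancers. The difference between the classes themselves was not tested.

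Positive control elements were the most active class, with a median of 1.37 (a 2.59-fold higher output, 1249 pairs) and library medians of 1.44, 1.38, 1.40 and 1.47. Of their pairs, 68.6% were called higher and 4.64% lower, against 26.8% and 12.9% of all tested pairs. Over enhancers 54 of 66 elements were higher (81.8%), against 41.1% of all 1368 elements. The element at chr19:49378601-49378801 had the highest mean of the library, 4.38 (SD 0.97, n = 20 enhancers, adjusted p = 1.02e-16 by limma), a 20.9-fold higher output. Its library means were 4.46, 4.42, 4.26 and 4.47, and it was followed by the elements at chr6:29910089-29910289 with 3.71 (SD 0.89) and chr15:78240396-78240596 with 3.54 (SD 0.67). Of the 6 positive control elements that were lower than random elements, that at chr6:123729205-123729405 was lowest at -0.95 (SD 0.63, n = 17 enhancers), below 0 beside 16 of the 17. That at chr2:76444862-76445062 averaged -0.87 (SD 0.51) and was below 0 beside all 20.

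Among the elements named singly, Smirnov_C8 averaged -0.93 (SD 0.59, n = 20 enhancers, adjusted p = 2.03e-07 by limma), with library means of -0.97, -0.84, -1.29 and -0.91 and no enhancer beside which it was above 0. Smirnov_C3 averaged 0.55 (SD 0.33, n = 16 enhancers, adjusted p = 9.80e-06 by limma) and was above 0 beside all 16. Smirnov_C6a (0.17, SD 0.46, n = 20 enhancers) and cHS4, the insulator of the chicken beta-globin locus (0.09, SD 0.43, n = 18 enhancers), did not pass the test (adjusted p = 0.143 and 0.448 by limma). The library means of cHS4 were -0.07, 0.01, -0.51 and 0.36, on both sides of 0, and its mean turned to -0.04 with summed counts.

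The random elements set the zero of the scale, and they were not inert. The SD of their mean effects was 0.50 log2 units, and the lowest measured beside at least 15 enhancers, random_97 (-1.01, SD 0.42, n = 16 enhancers) and random_574 (-0.96, SD 0.44, n = 17), were as low as strong REST windows. The highest were random_705 (2.34, SD 0.72, n = 18) and random_553 (2.05, SD 0.68, n = 17). The share of random pairs called in either direction rose with depth, from 7.89% with 10 to 50 barcodes to 60.4% with over 400, while the SD of their effects stayed between 0.60 and 0.70. The median standard error fell from 0.48 to 0.10 over the same range.

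Single pairs were ranked among those called, with a mean of at least 100 counts on each side and the same sign in all 4 replicate numbers. The 5 largest decreases of this kind were beside En20 and En19. For REST_chr19:4769653-4769853 beside En20 the cDNA-headed counts were 2123, 2371, 2321 and 1811 and the plmd-headed ones 1550, 2530, 2963 and 2159, on 252 barcodes. The counts of both sides overlap, whereas random elements beside En20 had a median log2 ratio of 2.23, which gives the effect of -2.64 (SE 0.19, adjusted p = 1.53e-09 by edgeR), a 6.21-fold lower output. Taken alone, the plmd-headed libraries gave -3.13, -2.81, -2.31 and -2.39. REST_chr19:6564523-6564723 beside En20 followed at -2.54 (SE 0.17), with -2.53, -2.56, -2.19 and -3.02 by library. CTCF_TAD_chr7:48149841-48150041 beside En20 (-2.44, SE 0.44), REST_chr18:5868356-5868556 beside En20 (-2.42, SE 0.37) and random_27 beside En19 (-2.36, SE 0.57) rested on 41, 36 and 24 barcodes. The random_27 pair was at -4.67 in the fourth library and at -2.55 to -1.58 in the other libraries.

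The 5 largest increases ranked in this way were all of positive control elements beside weak enhancers. The element at chr19:49378601-49378801 reached 5.74 beside En01, 5.64 beside En02 and 5.32 beside En07 (SE 0.08, 0.08 and 0.10), and the element at chr6:29910089-29910289 reached 5.28 beside En02 and 5.13 beside En01 (SE 0.16 and 0.10). Beside En01 the former had cDNA-headed counts of 5056, 6334, 4123 and 4175 against plmd-headed counts of 69737, 96119, 70083 and 57068, on 3615 barcodes. Every plmd-headed count is above every cDNA-headed one in this pair.

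The enhancers spanned a wide range of output, measured as the median log2 ratio of their random pairs, each library scaled to its total. En01 was lowest at -2.20 (-2.29, -2.18, -2.10 and -2.34 by library), next to En02 at -2.20, and from there the values rose through En04 (-1.16), En05 (-0.24), En11 (0.15) and En18 (1.19) to En21 (1.98) and En20 (2.23). En20 was at 2.28, 2.16, 2.19 and 2.24 by library, above En21 in each library, whereas the libraries of En01 and En02, and of En07, En10, En09 and En12, overlap. In the genome-wide library the shared enhancers were at -1.87 for En02, -1.34 for En11, -0.33 for En09, 0.22 for En19 and 0.53 for En21, the same order except that En09 and En11 changed places. En16 had 91 members and 33 tested pairs, the fewest of any enhancer, and no class median is given for it.

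The REST median was below 0 beside all 20 other enhancers, from -0.73 beside En19 to -0.07 beside En18, while GFI1, YY1 and positive control medians were above 0 beside all 20. Class medians fell as the enhancer became more active for the positive controls, from 2.20 beside En02 to 0.50 beside En20 (Pearson r = -0.86 with activity over 20 enhancers), for CTCF (r = -0.80) and for CTCF_TAD (r = -0.75). For GFI1 (r = -0.50), REST (r = -0.38) and YY1 (r = -0.29) the coefficients were smaller. These correlations are descriptions, since all enhancers share the same elements and libraries, and the random pairs that define activity also scale the effects. The count of REST windows called lower ran from 3 of 62 beside En05, where 1.68% of all pairs were called lower, to 54 of 85 beside En09, where 22.0% of all pairs were.

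Fitted element by element against enhancer activity, 258 of 1368 slopes were negative and 18 positive past the threshold (18.9% and 1.32%, limma). With summed-count scaling these counts were 166 and 39. Without the most and the least active enhancer 105 slopes were called in all, and with pairs weighted by their precision 416. Negative slopes were called for 43 of 66 positive controls, 41 of 124 CTCF_TAD, 26 of 78 CTCF, 25 of 125 YY1, 35 of 254 GFI1 and 19 of 83 REST elements, and for 68 of 634 random elements. Slopes are ranked here outside the random elements and among elements measured beside at least 15 enhancers. GFI1_chr2:48373191-48373391 had the steepest negative slope, at -0.65 per log2 unit of activity (SE 0.10, adjusted p = 1.31e-04 by limma). Its effect was 4.53 beside En01 and 4.68 beside En02 but 1.29 beside En21 and 0.93 beside En20. The positive controls at chr19:3762598-3762798 (-0.62, SE 0.09) and chr10:102295529-102295729 (-0.61, SE 0.09) came next. The lowest REST window, REST_chr19:4769653-4769853, also had a negative slope (-0.40, SE 0.08, adjusted p = 9.65e-04 by limma), that is, a deeper decrease beside stronger enhancers.

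Positive slopes outside the random elements were rare. Among those measured beside at least 15 enhancers, REST_chr18:11908122-11908322 had the highest at 0.25 (SE 0.07, adjusted p = 0.0158 by limma). This window lies 144 bases from the annotated start of the phosphoesterase gene MPPE1. Its effect was 0.43 beside En01 and 0.48 beside En02, and 0.92 beside En21 and 1.65 beside En20. GFI1_chr1:204430944-204431144 (0.22, SE 0.07) and GFI1_chr2:102369587-102369787 (0.17, SE 0.05) had mean effects that did not pass the test. All 3 slopes lost their call when the most and the least active enhancer were left out, at 0.24, 0.20 and 0.15, and the GFI1_chr1:204430944-204431144 slope also without the first cDNA-headed library (0.17) or the second plmd-headed one (0.20), and that of GFI1_chr2:102369587-102369787 without the first plmd-headed library (0.15).

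Among the 800 elements measured beside all 20 enhancers, 554 (69.2%) had effects that differed between enhancers (edgeR quasi-likelihood F test). By class these were 33 of 42 REST, 61 of 77 YY1, 124 of 169 GFI1, 28 of 38 CTCF, 51 of 69 CTCF_TAD, 35 of 41 positive control and 220 of 362 random elements. Each pair has its own barcodes, which the replicate libraries share. Differences between the constructs of an element therefore enter this test and cannot be told apart from those between enhancers. REST_chr19:2608138-2608338 varied most among the named REST windows, from 0.19 beside En21 to 3.30 beside En11. REST_chr9:34494045-34494245 varied less, from -1.998 beside En17 to -0.36 beside En02. GFI1_chr1:169162799-169162999 and CTCF_TAD_chr9:98098678-98098878 did not pass this test (adjusted p = 0.288 and 0.439 by edgeR), with SDs over enhancers of 0.35 and 0.37.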

How the data were processed

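Per the file headers, the benchmark table holds the authors' barcode counts per construct, as whole numbers summed over barcodes, for 4 cDNA-headed and 4 plmd-headed libraries. The deposited plmean is the mean signal of the plmd-headed columns, and the deposited log2 fold change was used for its direction only. The aligner, the counter and the genome build are not given in the sources used here. REST and YY1 windows were read from hg38. Motif matches were centred in 29 of 85 and 43 of 129 windows (within 15 bases of the centre), while windows 1000 bases downstream held 1 and 6 matches anywhere. No other build was read. On chromosome 19 the match began at base 94 in REST_chr19:4173112-4173312 but at base 80 in REST_chr19:5356460-5356660. On chromosome 5 only REST_chr5:13554060-13554260 held a match, beginning at base 21. The build is therefore not settled for every window, and the sequence, gene and GC values rest on it.

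The plmd-headed columns were taken as the RNA side. Pairs with a mean cDNA-headed count of at least 20 (25506 of 25712) entered a quasi-likelihood fit in edgeR 4.0.16 (R 4.3.3). Each library was scaled within each enhancer by the median of ratios over the random elements beside it. Values of single libraries were taken from log2 counts with a pseudocount of 0.5, not from the edgeR fit. Their average can therefore differ from the edgeR effect. Element means and slopes over at least 10 enhancers came from limma 3.58.1, and the difference between enhancers from an edgeR F test without En16. P-values were adjusted by the Benjamini-Hochberg method over all features tested. The genome-wide library in GM12878 was fitted the same way from its RNA and plasmid counts. The fits were also run on simulated counts. In these, random elements had no effect and libraries shared no construct error, unlike the measured data, so that run does not cover either.

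Named per class are the 3 lowest and 3 highest means (2 for random elements) among called elements measured beside at least 15 enhancers. The elements named singly were added, with the 3 lowest and 3 highest called slopes outside the random elements under the same limit of enhancers. The named pairs are the 5 largest called decreases and the 5 largest called increases. Each had a mean of at least 100 counts on each side and the same sign in all replicate numbers. REST_chr19:6564523-6564723 and other elements entered only through the pairs. Some elements and sequences that this rule gives are not reported here. The members, lists and tests were chosen with earlier results of these data known. PCR reads are not independent molecules. Alternatives were scaling, filters on counts and barcodes, DESeq2 1.42.0, libraries left out, a replicate block, weights and Cochran's Q.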

Additional observations from a re-analysis of the deposited data

Results flagged for a closer look

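The effects of 554 of 800 elements differed between enhancers by the test of that difference itself (edgeR F test). Such a difference includes any between the barcode sets of the pairs, which the replicate libraries share.

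In 4 of 88 groups of 4 plmd-headed libraries, a library stood far from the other libraries relative to the range of the group, and chance flags about 1 in 20 such groups. The mean of REST_chr19:2169150-2169350 was 2.31 in the second library against 2.36 to 2.37 in the others. GFI1_chr2:48373191-48373391 was at 2.75 in the third library against 2.89 to 2.92. CTCF_chr8:41685942-41686142 was at 1.34 in the third library against 1.61 to 1.66. GFI1_chr2:102369587-102369787 was at 0.21 in the first library against 0.07 to 0.09. Each gap is small beside the SD of the same element over enhancers, which was 0.60, 1.04, 0.54 and 0.31.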

How the results depend on the processing

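Scaling on summed counts moved the class medians to -0.50 for REST, 0.082 for GFI1, 0.53 for YY1, 0.24 for CTCF, -0.15 for CTCF_TAD and 1.26 for positive controls. TMM within each enhancer, chosen after seeing the data, gave -0.51, 0.068, 0.52, 0.22, -0.16 and 1.26 in the same order, and 4845 pairs lower and 5738 higher. The mean of cHS4 turned to -0.043 and -0.053 under these scalings, and with each library left out in turn it ran from -0.022 (without the fourth plmd-headed library) to 0.13. GFI1 pairs called lower rose from 458 to 705 and random ones from 1664 to 2510 with summed counts. At least 100 barcodes, also chosen after seeing the data, gave medians of -0.28 for REST, 0.23 for GFI1, 0.69 for YY1 and 1.52 for positive controls. With the headings read as written the medians were 0.36, -0.20, -0.65, -0.36, 0.023 and -1.37 in the order above.

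Leaving out each library in turn gave medians of -0.37 to -0.34 for REST, 0.20 to 0.21 for GFI1, 0.62 to 0.67 for YY1, and 9095 to 9994 called pairs. A mean of at least 100 cDNA-headed counts left 325 elements in the test between enhancers, of which 267 were called. Slopes called numbered 416 with weights and 105 without the most and the least active enhancer. Cochran's Q called 750 elements, DESeq2 10854 pairs. The replicate block called 9914 pairs. Libraries of the same number shared little (correlations of 0.006 to 0.021), so the numbers were not taken as pairs, although each number correlated best with its own. TMM over all pairs without scaling within an enhancer was not run, since it leaves the activity of the enhancer in the effect. The other 153 values of main results stayed near the main fit, counts in their total and class medians within their SD over plmd-headed libraries. The total of a count can stay while its split changes. Elements called lower and higher were 383 and 562 in the main fit, 511 and 458 with summed counts and 525 and 457 with TMM. Depth limits pairs of 10 to 50 barcodes, with a median standard error of 0.48.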
